A study of Homo sapiens with 42 samples.

Results

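The 9 genes described here encode the kinase that releases paused RNA polymerase II, its inhibitor, and the elongation factors that work with it: CDK9, CCNT1, CCNT2, HEXIM1, LARP7, AFF4, ELL, ELL2 and SUPT5H. They were chosen by name and found by Ensembl identifier, and all 9 of the 58243 genes in the count tables had a row for mRNA and for nuclear RNA. They were measured in K562, a human cell line grown from a chronic myeloid leukaemia in blast crisis that carries the BCR-ABL1 fusion kinase. Poly(A) mRNA of whole cells was sequenced from untreated cells (CTRL), from cells given 1 μM imatinib (IM), the BCR-ABL1 inhibitor, for 1, 6 or 18 h, from cells given 5 μM JTE-607 (JTE), which blocks the CPSF73 nuclease that cuts nascent transcripts at the poly(A) site, for 1, 6 or 18 h, and from cells given 110 mM KCl, a hyperosmotic stress, for 1 or 3 h. Nuclear RNA depleted of ribosomal RNA was sequenced from CTRL, IM 1h, IM 18h, JTE 1h and KCl 1h. Each of the 14 groups had 3 replicates from separate experiments, and CTRL was untreated. All cells were of 1 line, and in bulk RNA a change in the share of cells that express a gene and a change in its RNA per cell cannot be told apart.

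P-TEFb consists of the kinase CDK9 and a T-type cyclin, CCNT1 or CCNT2. It phosphorylates the polymerase tail, the negative factor NELF and the SPT5 subunit of DSIF, encoded by SUPT5H, and so lets a polymerase paused near the promoter move into the gene. A large share of P-TEFb is held inactive in a complex of the 7SK RNA, bound and stabilized by LARP7, and HEXIM1, which blocks the kinase. Active P-TEFb is brought to genes by the super elongation complex among others, in which AFF4 is the scaffold and ELL or ELL2 speeds the polymerase. HEXIM1 transcription is known to go up when P-TEFb is released from 7SK, and ELL2 is known for its part in the choice of poly(A) site in plasma cells.

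Of the 9 genes, 4 were called in at least 1 comparison with CTRL: HEXIM1 rose under KCl, ELL2 rose under imatinib, and CDK9 and ELL fell under JTE-607. The other 5 were never called against CTRL. The share of all genes called is given with each comparison below. The transcript ends of these 4 genes are shown first because JTE-607 acts on the step that makes them. Each line gives the last 30 bases of the canonical transcript on hg38 (GENCODE 44), 5′ to 3′ on the transcript's strand, with the hexamer AATAAA or ATTAAA, the usual poly(A) signals, in capitals where it is present.
HEXIM1, chr17:45152070-45152099, plus strand: taaaaattatATTAAAcatttattttgaaa
CDK9, chr9:127790763-127790792, plus strand: caaaaggccagtaaaagtaagaaaaaaaaa
ELL, chr19:18442663-18442692, minus strand: tcattctccAATAAAtttcactgaactgaa
ELL2, chr5:95885098-95885127, minus strand: ttcagttcAATAAAaatgttaactttgcaa
ELL and ELL2 carried AATAAA 15 and 16 bases before the end, and HEXIM1 carried the variant ATTAAA 14 bases before it. The CDK9 window held neither hexamer, the only 1 of the 9 genes without a match. Over 20046 canonical protein-coding transcripts, 56.6% held AATAAA in the same window, 13% held ATTAAA alone and 30.4% held neither. No other hexamer was searched for, so a window without a match may still hold a variant of the signal. A match describes these letters only, and no site of cleavage was measured.

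The promoter of HEXIM1 is shown because this gene had the widest range among the 9. Its 250 bases before the RefSeq start (GRCh38.p14, chr17:45148225-45148474, plus strand) read as follows, with matches on either strand to the TATA box TATAAA, the CCAAT box CCAAT and the GC box GGGCGG in capitals.
HEXIM1 promoter: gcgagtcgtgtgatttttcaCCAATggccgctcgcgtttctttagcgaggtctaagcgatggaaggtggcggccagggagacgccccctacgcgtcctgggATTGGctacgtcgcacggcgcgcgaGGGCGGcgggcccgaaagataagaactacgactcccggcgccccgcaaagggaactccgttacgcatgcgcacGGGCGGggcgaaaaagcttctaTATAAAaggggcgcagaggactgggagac
The TATA box began 29 bases before the start, the GC boxes began 51 and 124 bases before it and the CCAAT boxes 149 and 230 bases before it, and none of the matches overlapped. Of the 8 genes with a RefSeq promoter entry, HEXIM1 was the only 1 with TATAAA in this window, against 10.7% of 35116 promoters of the same length. All 8 held GGGCGG, against 42.6% of promoters, and 4 held CCAAT, against 32.0%. A gene counted if any of its entries matched, and CCNT1, LARP7 and SUPT5H had more than 1 entry. The percentages count single entries, so the measures are not alike. The CCNT1 entry at chr12:48696239-48696488 held neither GGGCGG nor CCAAT. The search also covered the cyclic AMP response element TGACGTCA (1.6% of promoters) and the E box CACGTG (6.3%), neither of which was found in the HEXIM1 window.

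On hg38, HEXIM1 (ENSG00000186834) spans 45148502 to 45152101 of chromosome 17 in the authors' gene table and is a single exon of 3600 bases with no intron. CDK9 (ENSG00000136807) lies on chromosome 9, 127785679 to 127790787, with 3000 exonic bases and 6 introns. ELL (ENSG00000105656) lies on chromosome 19, 18442663 to 18522127, and ELL2 (ENSG00000118985) on chromosome 5, 95885098 to 95962071, both on the minus strand. CCNT1 (ENSG00000129315) lies on chromosome 12, 48688458 to 48716998, CCNT2 (ENSG00000082258) on chromosome 2, 134918235 to 134959342, and LARP7 (ENSG00000174720) on chromosome 4, 112636964 to 112657592. AFF4 (ENSG00000072364) lies on chromosome 5, 132875379 to 132963634, and SUPT5H (ENSG00000196235) on chromosome 19, 39436156 to 39476670. Counts were summed over all exons of a gene, and pairs over exons of another gene were left out. For HEXIM1, 520 of its 3600 exonic bases (14.4%) also belong to the antisense gene HEXIM2-AS1, which held at most 14 counts in any mRNA library and 71 in any nuclear library. CCNT2, AFF4, ELL and ELL2 each have 1 or 2 introns longer than the 10000 bases the aligner allowed, so pairs spliced over those introns were not counted.

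The mRNA libraries held 16439848 to 22505595 counts, apart from KCl 1h replicates 2 and 3 with 62953314 and 42474454, and the nuclear libraries 16175394 to 25103205. The 9 genes held between 191 counts (ELL) and 8699 counts (SUPT5H) in a library. Levels are given as CPM, counts scaled to library size with TMM factors, and a gene was called at an edgeR adjusted p under 0.05 with a log2 fold change past 0.6 in size. Within each group the replicates varied beyond counting noise, with a chi-square per gene from 2.23 to 54.2, so each library was 1 replicate. Erythroid markers of K562 were present throughout, with GATA1 group means from 136 to 168 CPM in mRNA, while KRT5, MS4A1 and CD3E stayed at or below 0.246 CPM. The epithelial marker EPCAM was present at 85.8 to 98.9 CPM in mRNA. MALAT1, a nuclear RNA, reached group means of 13201 to 15229 CPM in the nuclear libraries and 2235 to 2903 CPM in mRNA, but the mitochondrial transcript MT-CO1 was at 9762 to 12615 CPM in the nuclear libraries, within its mRNA range.

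In untreated cells the levels were compared per kilobase of exon. In mRNA, CCNT1 stood at 16.9 ± 2.34 CPM per kb (SD, n = 3), SUPT5H at 16.8 ± 1.41, HEXIM1 at 16.0 ± 4.36 and CDK9 at 15.1 ± 0.72. On this scale the kinase, its main cyclin, its inhibitor and SPT5 thus lay within each other's spread. The length used takes in all annotated exons of a gene, which can be longer than the transcripts made. The order of the genes therefore depends on the annotation as well as on the counts. Before that division SUPT5H, with 8568 exonic bases, was at 144 CPM and CDK9, with 3000, at 45.3 CPM. LARP7 followed at 12.1 ± 0.75 CPM per kb and AFF4 at 10.3 ± 0.61. ELL2 at 7.69 ± 0.59, CCNT2 at 6.03 ± 0.47 and ELL at 4.12 ± 0.45 CPM per kb were the lowest. In nuclear RNA, CDK9 was the highest at 22.2 ± 1.79 CPM per kb, and LARP7 stood at 5.47 ± 2.20. The ratio of the nuclear to the mRNA CTRL mean in CPM ran from 0.454 for LARP7 to 1.47 for CDK9. The libraries of each fraction were made differently and normalized apart, so this ratio describes them and was not tested.

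**Figure D1:**
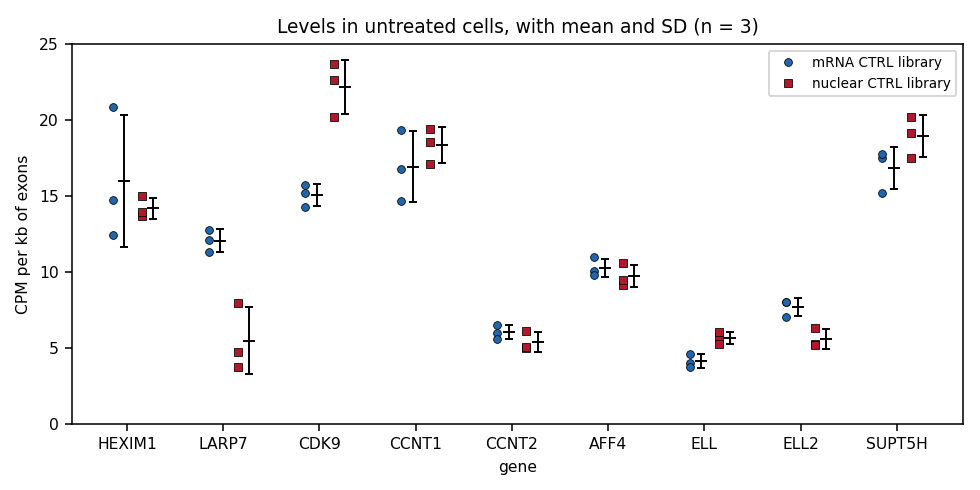
Levels in untreated cells, in CPM per kb of exons on the vertical axis, for each of the 9 genes, with mRNA and nuclear RNA side by side. Points are libraries and the bars give the mean and SD of 3. CDK9, CCNT1, HEXIM1 and SUPT5H have mRNA means from 15.1 to 16.9 CPM per kb, and nuclear LARP7 has the widest relative spread.

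HEXIM1, the inhibitor, was the only member called against CTRL under KCl. Its mRNA was at 53.0, 44.8 and 75.1 CPM in CTRL replicates 1 to 3, at 117.9, 117.6 and 165.5 CPM in KCl 1h, and at 190.2, 165.9 and 218.9 CPM in KCl 3h. Every KCl library lay above every CTRL library, and the lowest KCl 1h value was above the highest of the other 7 groups. HEXIM1 mRNA rose from a mean of 57.6 ± 15.7 to 134 ± 27.5 CPM at 1 h (SD, n = 3), a log2 fold change (log2FC) of 1.21 (SE 0.24, 95% interval 0.75 to 1.68, edgeR adjusted p 0.00176). At 3 h it reached 192 ± 26.5 CPM, a log2 fold change of 1.73 (SE 0.24, interval 1.26 to 2.20, edgeR adjusted p 1.59e-05). The deeply sequenced KCl 1h replicates 2 and 3 did not carry the 1 h result, which was 1.30 without the former, 1.03 without the latter and 1.21 with all libraries thinned to 1 depth, each time called. HEXIM1 was the only 1 of the 9 called in KCl 1h, where 5.45% of all genes tested were called, and the only 1 in KCl 3h, where 11.9% were.

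The nuclear libraries gave HEXIM1 a tighter spread. In CTRL it was at 53.9, 49.2 and 50.3 CPM and in KCl 1h at 153.7, 152.0 and 139.6 CPM, with no overlap. Nuclear HEXIM1 rose from 51.1 ± 2.49 to 148 ± 7.71 CPM, a log2 fold change of 1.54 (SE 0.09, interval 1.36 to 1.72, edgeR adjusted p 4.2e-10). It was again the only member called in this comparison, in which 23.8% of genes were called. The antisense gene HEXIM2-AS1 went the other way in these libraries, from 1.09 to 0.39 CPM, with a log2 fold change of -1.45 (edgeR adjusted p 0.0224). In IM 18h HEXIM2-AS1 was called higher, by 3.06 in mRNA (edgeR adjusted p 0.00352) and by 1.48 in nuclear RNA (edgeR adjusted p 0.00167). ACBD4, the nearest gene upstream on the same strand, ended 4321 bases before HEXIM1 and was not called under KCl, with log2 fold changes of -0.06 and 0.31 in mRNA at 1 and 3 h and 0.00 in nuclear RNA at 1 h.

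Outside KCl, HEXIM1 mRNA means lay between 39.5 CPM in JTE 6h and 66.3 CPM in IM 6h. Ordered by mean, the groups ran JTE 6h, IM 18h, JTE 1h, JTE 18h, CTRL, IM 1h, IM 6h, KCl 1h and KCl 3h, and the libraries of all neighbours up to IM 6h overlapped. KCl 3h against KCl 1h gave a log2 difference of 0.52 (interval 0.06 to 0.98, edgeR adjusted p 0.279), which was not called. In JTE 6h the libraries were at 26.8, 39.8 and 51.9 CPM and overlapped CTRL, with a log2 fold change of -0.54 (SE 0.24, edgeR adjusted p 0.125). Replicate 3 was the highest library in 8 of the 9 mRNA groups, so part of the spread went with the replicate number. In the nuclear fraction of IM 18h the libraries were at 59.6, 71.0 and 68.1 CPM, all above CTRL, with a log2 fold change of 0.37 (SE 0.09, edgeR adjusted p 0.00223), below the fold required for a call.

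CDK9, the kinase subunit, was the member that fell most. Its mRNA was at 47.2, 42.9 and 45.7 CPM in CTRL, at 33.5, 37.5 and 33.7 CPM in JTE 1h, at 12.02, 21.2 and 17.1 CPM in JTE 6h and at 31.6, 34.3 and 30.4 CPM in JTE 18h. All 9 JTE-607 libraries lay below all CTRL libraries, and the JTE 6h libraries lay below every other mRNA library. At 1 h the log2 fold change was -0.37 (SE 0.13, edgeR adjusted p 0.234), which was not called. At 6 h CDK9 mRNA fell from 45.3 ± 2.17 to 16.8 ± 4.61 CPM, a log2 fold change of -1.43 (SE 0.13, interval -1.68 to -1.18, edgeR adjusted p 3.57e-08). It was the only member called in JTE 6h, where 13.2% of genes were called. At 18 h the mean was 32.1 ± 2.00 CPM and the log2 fold change -0.49 (SE 0.13, edgeR adjusted p 0.0133), which passed the p threshold and not the fold.

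The course of CDK9 in JTE-607 was tested between the time points themselves. From 1 to 6 h it fell by 1.06 log2 units (SE 0.13, edgeR adjusted p 5.43e-06), and from 6 to 18 h it rose by 0.94 (SE 0.13, edgeR adjusted p 1.86e-05). The low point was therefore at the middle of the 3 time points. In nuclear RNA CDK9 was at 60.7, 67.9 and 71.2 CPM in CTRL and at 48.8, 46.2 and 52.7 CPM in JTE 1h, without overlap, a log2 fold change of -0.43 (SE 0.11, edgeR adjusted p 0.0161). Nuclear KCl 1h gave -0.33 (SE 0.11, edgeR adjusted p 0.0350). Neither reached the fold required. In mRNA the 2 KCl groups had means of 41.0 and 37.8 CPM and the IM 6h and IM 18h groups 52.0 and 53.0 CPM, none of them called.

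The cyclins did not follow the kinase. CCNT1, the main cyclin partner, was at 123.8, 142.9 and 108.4 CPM in CTRL and at 168.3, 143.8 and 129.7 CPM in JTE 6h, with overlap and a log2 fold change of 0.24 (SE 0.11, edgeR adjusted p 0.152). In KCl 3h it was at 85.1, 86.7 and 88.1 CPM, below every CTRL library, a log2 fold change of -0.53 (SE 0.11, edgeR adjusted p 0.0013) that did not reach the fold. CCNT2, the second cyclin, was at 59.2, 54.3 and 50.8 CPM in CTRL and at 39.4, 36.4 and 35.3 CPM in KCl 3h, with a log2 fold change of -0.57 (SE 0.15, edgeR adjusted p 0.00941). Both cyclins were thus lower than CTRL in KCl 3h at the p threshold and just short of the fold of 0.6. Between the KCl time points CCNT2 fell from 62.9 ± 10.3 to 37.0 ± 2.09 CPM (log2 difference -0.76, SE 0.15, edgeR adjusted p 0.00223), which was called, while CCNT1 gave -0.47 (SE 0.11, edgeR adjusted p 0.0101), which was not.

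The balance of inhibitor to kinase was described as the ratio of HEXIM1 to CDK9 in CPM per kb. In mRNA it was 1.06 ± 0.272 in CTRL (SD, n = 3), 2.72 ± 0.586 in KCl 1h, 4.23 ± 0.652 in KCl 3h and 1.99 ± 0.502 in JTE 6h. In nuclear RNA it was 0.644 ± 0.0841 in CTRL and 2.36 ± 0.374 in KCl 1h. The ratio of HEXIM1 to CCNT1 plus CCNT2 in mRNA was 0.718 ± 0.28 in CTRL and 3.36 ± 0.461 in KCl 3h. In JTE 6h it was 0.43 ± 0.193, below CTRL, where the ratio to CDK9 was above CTRL. These are ratios of transcript levels, not of the proteins, and no test was run on them.

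**Figure D2:**
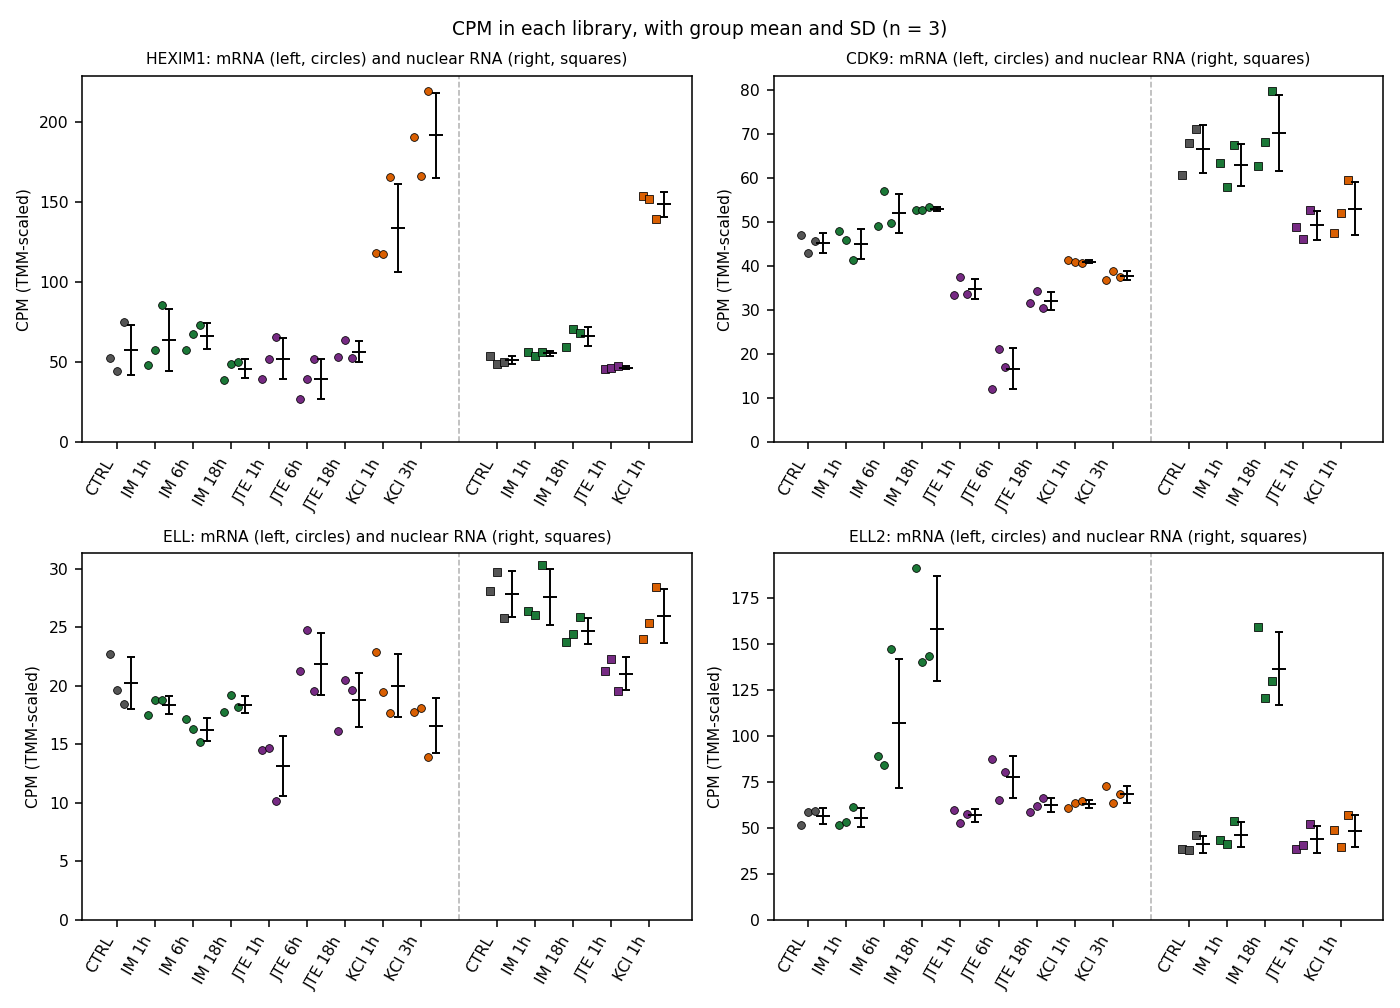
CPM on the vertical axis in each of the 42 libraries for HEXIM1, CDK9, ELL and ELL2, with mRNA groups to the left of the dashed line and nuclear groups to its right; black marks give the group mean and SD (n = 3). HEXIM1 lies between 117.6 and 218.9 CPM in the KCl libraries and at 85.4 CPM or below in all others, CDK9 is lowest in JTE 6h, and ELL2 is highest in IM 18h of both fractions.

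ELL2, an elongation factor of the super elongation complex, was the only member called against CTRL under imatinib. Its mRNA was at 51.4, 58.7 and 58.9 CPM in CTRL, at 51.7, 53.3 and 61.3 CPM in IM 1h, at 89.0, 84.2 and 147 CPM in IM 6h and at 191, 140.2 and 143 CPM in IM 18h. All IM 6h and IM 18h libraries lay above all CTRL libraries, and IM 1h overlapped CTRL. At 6 h ELL2 mRNA rose from 56.3 ± 4.31 to 107 ± 35.0 CPM, a log2 fold change of 0.92 (SE 0.16, interval 0.61 to 1.23, edgeR adjusted p 0.000308). Replicate 3 carried much of that mean, and without it the log2 fold change was 0.60 and no longer called. At 18 h the mean was 158 ± 28.6 CPM, a log2 fold change of 1.49 (SE 0.16, edgeR adjusted p 1.69e-07). ELL2 was the only member called in IM 6h, where 9.94% of genes were called, and in IM 18h, where 30.5% were, so 1 call among 9 was below the share of all genes in the latter.

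Nuclear ELL2 was at 38.6, 37.9 and 46.3 CPM in CTRL and at 158.8, 120.5 and 129.9 CPM in IM 18h. The groups did not overlap, and the mean rose from 40.9 ± 4.65 to 136 ± 19.95 CPM, a log2 fold change of 1.74 (SE 0.15, interval 1.44 to 2.04, edgeR adjusted p 3.78e-08). No other member was called there, against 32.6% of all genes. From 1 to 6 h of imatinib ELL2 mRNA rose by 0.94 log2 units (SE 0.16, edgeR adjusted p 0.000293), and from 6 to 18 h the difference was 0.57 (SE 0.16, edgeR adjusted p 0.0264), below the fold. Erythroid markers moved in the same libraries: from CTRL to IM 18h the mRNA mean of TAL1 went from 154 to 422 CPM, that of KLF1 from 85.5 to 185 CPM and that of HBE1 from 1121 to 4234 CPM, while GATA1 was at 166 and 144 CPM. The part of that shift in the ELL2 result was not tested.

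In JTE-607 ELL2 mRNA was at 87.5, 65.3 and 80.1 CPM at 6 h, above every CTRL library, with a log2 fold change of 0.46 (SE 0.16, edgeR adjusted p 0.0428) that did not reach the fold. At 1 and 18 h its means were 56.7 and 62.2 CPM. In KCl 3h it was at 72.6, 63.3 and 68.4 CPM and was not called.

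ELL, the paralogue of ELL2 and the lowest of the 9 in mRNA, fell early in JTE-607. It was at 22.8, 19.6 and 18.5 CPM in CTRL and at 14.5, 14.7 and 10.2 CPM in JTE 1h, without overlap. The mean went from 20.3 ± 2.22 to 13.1 ± 2.55 CPM, a log2 fold change of -0.63 (SE 0.15, interval -0.91 to -0.34, edgeR adjusted p 0.0351). ELL was the only member called in JTE 1h, where 0.851% of all genes were called. This call lay just past both thresholds and was lost without any 1 of the CTRL libraries or without JTE 1h replicate 3, the lowest library, when the log2 fold change ran from -0.71 to -0.47 over the fits that each left out 1 library. In JTE 6h ELL was back at 21.3, 24.8 and 19.5 CPM, and from 1 to 6 h it rose by 0.73 log2 units (SE 0.15, edgeR adjusted p 0.00109). In nuclear RNA ELL was at 28.2, 29.7 and 25.8 CPM in CTRL and at 21.3, 22.3 and 19.6 CPM in JTE 1h, a log2 fold change of -0.41 (SE 0.11, edgeR adjusted p 0.0179), below the fold. An antisense gene without a symbol, ENSG00000268199, shares 473 exonic bases (9.6%) with ELL, held at most 13 counts in an mRNA library and 10 in a nuclear library, and was too low to be tested.

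The ratio of ELL2 to ELL in CPM per kb was 1.89 ± 0.331 in CTRL mRNA and 5.81 ± 1.23 in IM 18h, and 0.997 ± 0.187 and 3.73 ± 0.67 in the nuclear libraries. On this scale, which depends on the annotated exon lengths, the paralogues stood at like nuclear levels in untreated cells. After 18 h of imatinib they stood apart, with no test on the ratio.

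**Figure D3:**
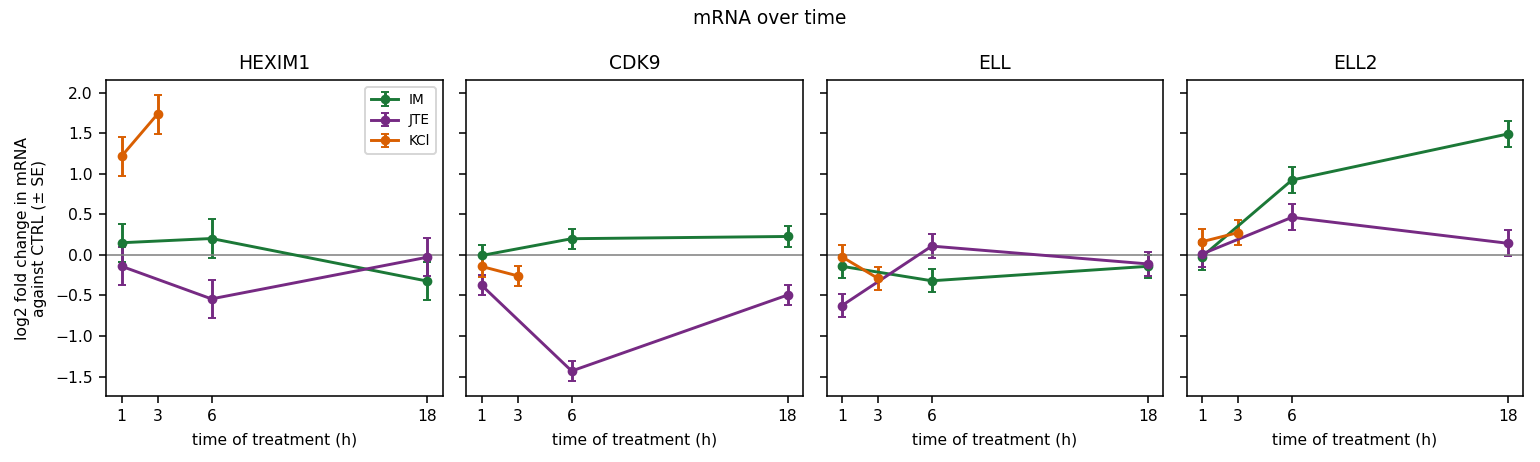
Log2 fold change in mRNA against CTRL (± SE) on the vertical axis and time of treatment in hours on the horizontal axis, for HEXIM1, CDK9, ELL and ELL2 under imatinib, JTE-607 and KCl. CDK9 reaches -1.43 at 6 h of JTE-607 and -0.49 at 18 h, ELL2 goes from -0.02 to 1.49 between 1 and 18 h of imatinib, and all points share the 3 CTRL libraries.

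LARP7, AFF4 and SUPT5H were called in no comparison with CTRL. LARP7, which binds and stabilizes 7SK, had mRNA group means from 46.5 to 65.1 CPM. It was at 52.2, 49.5 and 46.1 CPM in CTRL and at 78.5, 62.3 and 54.6 CPM in JTE 6h, above all CTRL libraries, with a log2 fold change of 0.40 (SE 0.14, edgeR adjusted p 0.0515). In nuclear RNA LARP7 was at 32.4, 19.3 and 15.2 CPM in CTRL. Replicate 1 was its highest library in all 5 nuclear groups. In the fit with a replicate block, by which the nuclear libraries are paired, LARP7 was higher than in CTRL by 0.47 log2 units in nuclear IM 1h (edgeR adjusted p 0.00528) and by 0.46 in nuclear JTE 1h (edgeR adjusted p 0.000596), both below the fold of a call.

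AFF4, the scaffold of the super elongation complex, had mRNA group means from 106 to 132 CPM. In nuclear RNA it was at 119.5, 103.5 and 106.9 CPM in CTRL and at 136, 125 and 128 CPM in IM 18h, without overlap, a log2 fold change of 0.24 (SE 0.09, edgeR adjusted p 0.0433), below the fold. SUPT5H, the SPT5 subunit of DSIF, was the steadiest of the 9, with mRNA group means from 136 to 161 CPM, a range of 0.23 on the log2 scale. By the same measure the range of mRNA group means was 2.31 for HEXIM1, 1.67 for CDK9, 1.49 for ELL2, 0.75 for CCNT1 and CCNT2, 0.73 for ELL, 0.47 for LARP7 and 0.30 for AFF4.

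Over the 12 comparisons with CTRL, which share their control libraries within a fraction, there were 8 calls in 108 tests of a member, in 8 comparisons, 1 call in each. In these 8 comparisons the share of all genes called ran from 0.851% (JTE 1h) to 32.6% (nuclear IM 18h). No share of all genes was pooled over the comparisons, so the 8 calls are not read as a result about the members. In the other 4 comparisons edgeR called 0 of the 9. These were IM 1h, where 0.0166% of all genes were called, JTE 18h (5.39%), nuclear IM 1h (0.0456%) and nuclear JTE 1h (8.52%). At an unadjusted p under 0.05, in the fit without a replicate block, they held 0, 1, 0 and 2 members, and DESeq2 called 0 in each. The median log2 fold change of the 9 lay between -0.14 and 0.16 in the 12 comparisons, beside medians of all genes tested between -0.01 and 0.04.

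**Figure D4:**
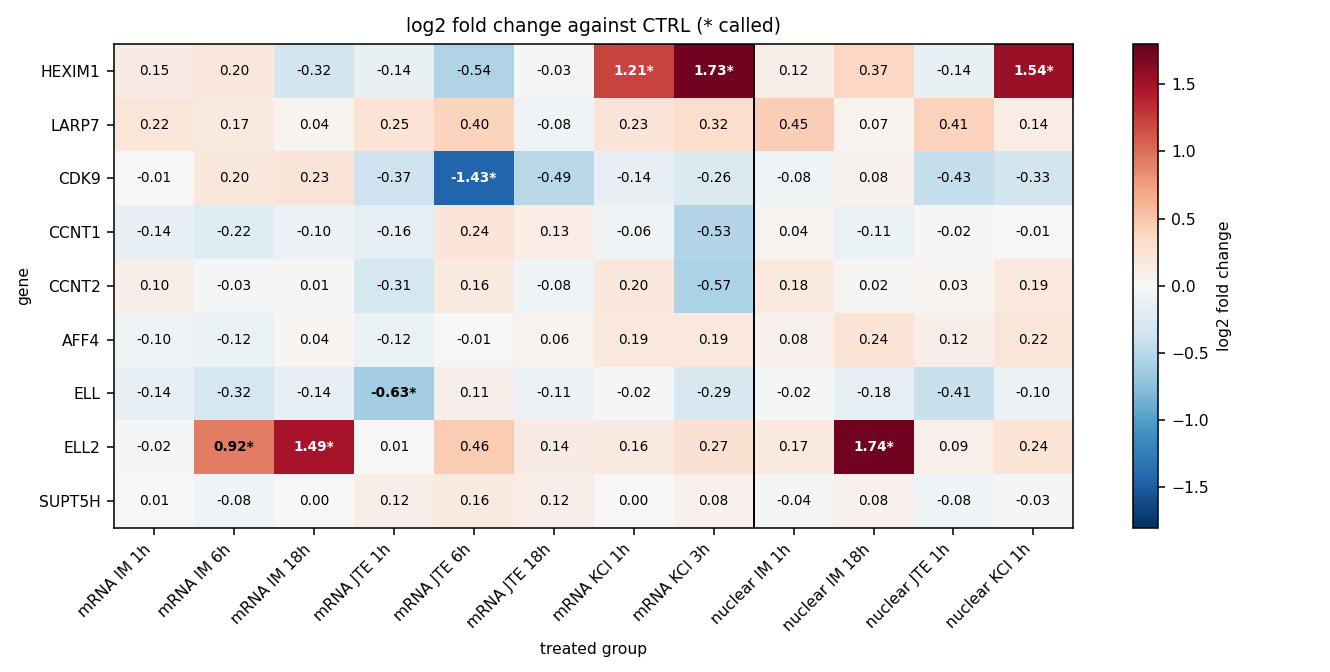
Log2 fold change against CTRL for each of the 9 genes (rows) in the 8 mRNA and 4 nuclear comparisons (columns), coloured from lower to higher, with an asterisk for a call (log2FC beyond 0.6 and edgeR adjusted p under 0.05). The 8 asterisks lie on HEXIM1 (3), ELL2 (3), CDK9 (1) and ELL (1).

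Differences between treatments and time points were also tested directly. HEXIM1 was higher in KCl 1h than in JTE 1h by 1.35 on the log2 scale in mRNA (SE 0.24, edgeR adjusted p 0.000792), where ELL was also called (0.60, edgeR adjusted p 0.0109) and 4.29% of genes were. In nuclear RNA the difference for HEXIM1 was 1.67 (SE 0.09, edgeR adjusted p 3.24e-10), the only call among the members against 15.9% of genes. Between imatinib and JTE-607 at 6 h, CDK9 was higher in imatinib by 1.63 (SE 0.13, edgeR adjusted p 4.43e-09) and HEXIM1 by 0.74 (SE 0.24, edgeR adjusted p 0.0179), 2 of 9 members against 23.8% of genes. At 18 h ELL2 was higher in imatinib by 1.35 (SE 0.16, edgeR adjusted p 6.04e-07) and CDK9 by 0.72 (SE 0.13, edgeR adjusted p 7e-05), 2 of 9 against 30.3% of genes. These shares do not set the members apart from genes in general in the comparisons of imatinib with JTE-607.

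Between nuclear JTE 1h and nuclear IM 1h edgeR called 0 members, where 8% of genes were called, with 3 members at an unadjusted p under 0.05 and 0 by DESeq2. Of the comparisons between time points, IM 6h against IM 1h called 1 member (ELL2) against 8.2% of genes, JTE 6h against JTE 1h called 2 (CDK9 and ELL) against 9.23%, JTE 18h against JTE 6h called 1 (CDK9) against 13.4%, and KCl 3h against KCl 1h called 1 (CCNT2) against 3.29%. IM 18h against IM 6h called 0 by edgeR and 0 by DESeq2, with 2 at an unadjusted p under 0.05, where 4.41% of genes were called. LARP7 was lower in JTE 18h than in JTE 6h by -0.49 (SE 0.14, edgeR adjusted p 0.0167), below the fold.

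For the 4 treatments measured in both fractions, the nuclear change was tested against the mRNA change as an interaction. EdgeR called 0 of the 9 members in each, where 0% of genes were called for IM 1h, 0.0901% for IM 18h, 0.0605% for JTE 1h and 0.668% for KCl 1h. At an unadjusted p under 0.05 there were 0, 1, 0 and 0 members, and DESeq2 called 0 in each. For HEXIM1 under KCl 1h the nuclear change exceeded the mRNA change by 0.22 (interval -0.25 to 0.68). For ELL2 under IM 18h the difference was 0.30 (interval -0.08 to 0.69), for CDK9 under JTE 1h -0.03 (interval -0.31 to 0.24) and for ELL under JTE 1h 0.24 (interval -0.16 to 0.65). The widest was HEXIM1 under IM 18h, 0.75 (SE 0.22, interval 0.32 to 1.18, edgeR adjusted p 0.499), where its mRNA change was -0.32 and its nuclear change 0.37. This difference was called with no low-count filter (0.73, edgeR adjusted p 0.0474) and with a replicate block in which mRNA CTRL 1 and 2 were exchanged (0.72, edgeR adjusted p 0.0349).

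**Figure D5:**
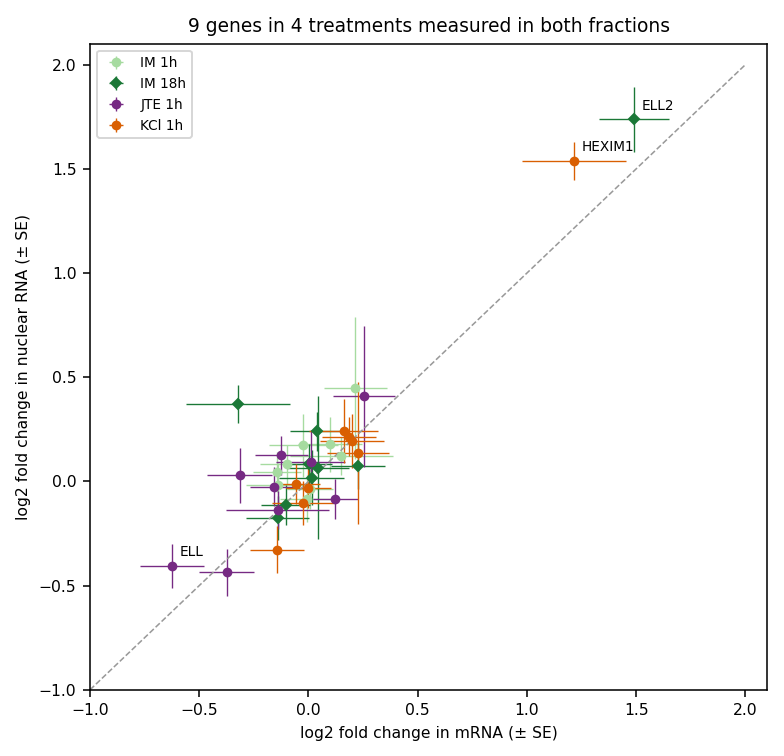
Log2 fold change against CTRL in mRNA (horizontal axis) and in nuclear RNA (vertical axis) for the 9 genes in IM 1h, IM 18h, JTE 1h and KCl 1h, with bars of ± SE and a dashed line where both are equal. HEXIM1 in KCl 1h (1.21 and 1.54) and ELL2 in IM 18h (1.49 and 1.74) stand apart at the upper right, and ELL in JTE 1h (-0.63 and -0.41) is at the lower left.

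The wider set of elongation genes was described with a list of 44, of which 41 were tested: other regulators of 7SK and P-TEFb, further subunits of the super and little elongation complexes, DSIF and NELF, the PAF1 complex, SPT6, FACT, TFIIS, elongin and the kinases of the polymerase tail. In KCl 3h 1 of the 41 was called, beside 11.9% of all genes, and in nuclear KCl 1h 3 were, beside 23.8%. JMJD6, reported to act on 7SK, rose in both, from 41.5 to 110.3 CPM in KCl 3h mRNA (log2FC 1.41 with SE 0.27, edgeR adjusted p 0.00063) and from 47.4 to 92.7 CPM in nuclear KCl 1h (0.97, SE 0.13, edgeR adjusted p 9.77e-06). HEXIM2, the paralogue of HEXIM1 on the same chromosome, fell from 2.73 to 1.72 CPM in nuclear KCl 1h (log2FC -0.67 with SE 0.22, edgeR adjusted p 0.0295), a call that was lost with thinned libraries. The other gene called there was ELL3, below 1 CPM in both groups and named after its values were seen. In KCl 1h mRNA edgeR and DESeq2 called 0 of the 41, with 4 at an unadjusted p under 0.05. There edgeR called 5.45% of all genes.

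In JTE-607, 4 of the 41 were called at 6 h, beside 13.2% of all genes. JMJD6 rose from 41.5 to 86.4 CPM (log2FC 1.06 with SE 0.27, edgeR adjusted p 0.0068). PAF1, the name-giving subunit of the PAF1 complex, fell (-0.68, SE 0.15, edgeR adjusted p 0.00207), and CCNH, the cyclin of the CDK7 kinase, fell (-0.66, SE 0.15, edgeR adjusted p 0.00225). The 4th was ELL3, again below 1 CPM. With only these 2 groups in the fit, 1 of the 41 was called, and it was lower. At 18 h the only call was NELFE, a subunit of the pausing factor NELF, which fell from 85.7 to 35.7 CPM (log2FC -1.26 with SE 0.12, edgeR adjusted p 2.48e-07). There 5.39% of all genes were called. At 1 h edgeR and DESeq2 called 0 in mRNA, with 0 at an unadjusted p under 0.05, and nuclear JTE 1h held 1 call, ELL3. Of all genes, 0.851% were called in JTE 1h mRNA and 8.52% in nuclear JTE 1h.

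In imatinib, 0 of the 41 were called at 1 h in either fraction by edgeR or DESeq2, with 0 at an unadjusted p under 0.05. Of all genes, 0.0166% were called in IM 1h mRNA and 0.0456% in nuclear IM 1h. At 6 h 1 was called, HEXIM2, which rose from 0.467 to 1.55 CPM (log2FC 1.71 with SE 0.38, edgeR adjusted p 0.00282). There 9.94% of all genes were called. At 18 h 6 were called in mRNA, 2 higher (HEXIM2 and AFF2) and 4 lower. AFF2 and EAF2, super elongation complex genes below 5 CPM, are named after their values were seen. The lower genes were JMJD6 (-1.06, 19.9 CPM in IM 18h, edgeR adjusted p 0.00338), ELOA and ELOC of elongin (-0.78, edgeR adjusted p 3.41e-05, and -0.68, edgeR adjusted p 4.73e-05) and CCNH (-0.78, edgeR adjusted p 0.000192). Nuclear RNA at 18 h held 9 calls, 3 higher (HEXIM2, AFF2 and EAF2) and 6 lower, with HEXIM2 rising from 2.73 to 7.22 CPM (1.40, SE 0.20, edgeR adjusted p 8.91e-06) and JMJD6, ELOA and ELOC falling by 0.95, 0.81 and 0.70 on the log2 scale. The median log2 fold change of the list was -0.27 in mRNA and -0.21 in nuclear RNA at 18 h, beside 0.04 and 0 for all genes. The 4 of 41 called lower in mRNA stand beside 13.2% of all genes called lower, and the 6 of 41 in nuclear RNA beside 15.4%, so these counts do not set the list apart. Higher calls made up 17.2% of all genes in each fraction. HEXIM2 in mRNA stayed below 2 CPM, so these changes rest on few counts.

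MEPCE, the enzyme that caps 7SK, gave -0.51 in nuclear JTE 1h (SE 0.15, edgeR adjusted p 0.0323) and -0.49 in nuclear IM 18h (SE 0.15, edgeR adjusted p 0.0109), both below the fold. RN7SK, the 7SK RNA itself, is listed at 0 in all 42 libraries under both of its gene identifiers, whose positions on chromosome 6 overlap almost fully (52995620 to 52995950 and 52995621 to 52995948), so its level was not measured here.

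The genes most like HEXIM1 over the 9 mRNA group means, among 8719 genes with a mean of at least 10 CPM, were PPFIA1 (Pearson r 0.975), CLASP2 (0.965) and ANKIB1 (0.954). Their changes were smaller than those of HEXIM1, with PPFIA1 at 62.6 CPM in CTRL and 76.2 CPM in KCl 3h. The genes most like CDK9 were RNF14 (0.994), CES2 (0.99) and SEC22B (0.986). These coefficients describe 9 points that share libraries of 3 experiments, and they were chosen as the highest of many.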

How the data were processed

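RNA-seq gene counts were analysed for 27 mRNA and 15 nuclear libraries in 14 groups, named from the sample titles. The authors deposited raw read-pair counts, made by trimming and removing duplicates with fastp, aligning to hg38 with STAR (unique alignments only, introns up to 10000 bases) and summing pairs over exons with featureCounts without a strand option. The submitters' processing notes name the build as GRCh38.p14. The annotation release is not given in the sources used here. Of 58243 gene IDs, 57532 are in GENCODE 44. No count column was without a sample, so 0 were left out.

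The test was that of edgeR 4.0.16 under R 4.3.3, robust quasi-likelihood with TMM and filterByExpr, with the libraries of a fraction in 1 fit, which left 18095 genes in mRNA and 21929 in nuclear RNA. P-values were adjusted by Benjamini-Hochberg over all of these. A gene was called where its log2FC passed 0.6, up or down, and its adjusted p was below 0.05. Intervals are 1.96 SE, with the SE taken as the size of the log2FC over the square root of the test's F statistic. P-values rest on the spread between replicates within groups, estimated over all groups in the fit and moderated across genes. Differences between fractions were interactions over 12 libraries. Scripts were tested on simulated data. The members, the elongation list and the alternatives (DESeq2 1.42.0, RLE normalization, no filter, no fold threshold, only the groups compared, a replicate block, genes above 1% of counts removed, thinning, leaving out each library) were chosen with earlier results of these data known. Named genes were the 9 members in every comparison, HEXIM2, MEPCE and RN7SK and a further gene not reported here, up to 3 called elongation genes per direction and comparison with CTRL, by size of change, with a mean of at least 5 CPM, the 3 genes most like HEXIM1 and CDK9, and neighbours within 10000 bases.

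Replicate numbers come from the titles. Same-numbered libraries deviated together from their group means in all 4 nuclear comparisons with CTRL (correlations from 0.235 to 0.891), which pairs them, but in none of the 8 mRNA comparisons with CTRL (from -0.368 to 0.877), where replicate 3 was positive in all 8 and replicates 1 and 2 almost all negative. Of 8 mRNA comparisons without CTRL, 6 were paired. The study lists the library totals of mRNA CTRL 1 and 2 in the order opposite to the count columns, which were matched by name. With the 2 exchanged, 7 of the 8 comparisons with CTRL would be paired (from 0.0553 to 0.877), and a block on that order, and some settings for the elongation list, were added after seeing the data. Fits without a block do not depend on this order. Sequences were taken from hg38 with GENCODE 44 and from RefSeq.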

Additional observations from a re-analysis of the deposited data

Results flagged for a closer look

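Each of the following members responded to a treatment differently at neighbouring time points, by edgeR's test of the difference between those time points. ELL2 was higher at 6 h than at 1 h of imatinib by 0.94 on the log2 scale (edgeR adjusted p 0.000293). In JTE-607, CDK9 was lower at 6 h than at 1 h by -1.06 (edgeR adjusted p 5.43e-06) and higher at 18 h than at 6 h by 0.94 (edgeR adjusted p 1.86e-05), while ELL was higher at 6 h than at 1 h by 0.73 (edgeR adjusted p 0.00109). In KCl, CCNT2 was lower at 3 h than at 1 h by -0.76 (edgeR adjusted p 0.00223). Groups of 3 libraries were too small for a test of single outlying libraries.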

How the results depend on the processing

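No called change of a member reversed under any of the 9 other settings or the 90 fits that left out 1 library. Members called in JTE 1h went from 1 to 0 with no low-count filter, with thinned counts and with only the 2 groups in the fit. In KCl 1h against JTE 1h they went from 2 to 1 under DESeq2, RLE normalization, removal of genes above 1% of counts and only 2 groups, and in JTE 6h against JTE 1h from 2 to 1 with only 2 groups. With no filter 1 member was called between fractions in IM 18h, HEXIM1 (0.73, edgeR adjusted p 0.0474). With no fold threshold, members called are given with the share of all genes called by the same rule in brackets. Against CTRL they were 2 in JTE 6h (18.1%), 1 in JTE 18h (9.19%) and 3 in KCl 3h (15.8%). In nuclear RNA against CTRL they were 3 in IM 18h (45.6%), 2 in JTE 1h (9.86%) and 2 in KCl 1h (27.2%). Between time points they were 1 in IM 18h against 6h (8.34%) and 4 in JTE 6h against 1h (13%). They were also 2 in JTE 18h against 6h (21.8%) and 2 in KCl 3h against 1h (4.89%). Between treatments they were 5 in IM 6h against JTE 6h (34.8%), 3 in KCl 1h against JTE 1h (5.47%) and 1 in nuclear JTE 1h against IM 1h (8.63%).

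Of the elongation list, IM 6h (1 called) gave 3 with no filter, 2 with DESeq2, either replicate block, thinned libraries, removal of genes above 1% of counts or only 2 groups, and 7 with no fold threshold. By that rule 16% of all genes were called in IM 6h. No threshold also gave 16 in IM 18h (43.8% of all genes), 7 in JTE 6h (18.1%) and 3 in JTE 18h (9.19%). It gave 19 in nuclear IM 18h (45.6%) and 2 in nuclear JTE 1h (9.86%). No filter gave 2 in KCl 1h and 2 in KCl 3h. Either replicate block gave 2 in JTE 18h, 1 in KCl 1h and 2 in KCl 3h, and only 2 groups 2 in JTE 18h. JTE 6h went from 4 to 1 with only 2 groups, nuclear JTE 1h from 1 to 0 with thinned libraries, and nuclear KCl 1h from 3 to 1 with thinned libraries and to 2 with DESeq2 or only 2 groups. IM 18h went from 6 to 5 with only 2 groups and to 9 with no filter.

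Leaving out 1 library, members called ran from 0 to 1 in IM 6h (0 without IM 6h replicate 3), from 0 to 1 in JTE 1h, from 1 to 2 in JTE 6h (without JTE 6h replicate 3, HEXIM1 -0.79), from 1 to 3 in KCl 3h (without CTRL replicate 3, CCNT1 -0.64 and CCNT2 -0.63; without KCl 3h replicate 1, CCNT2 -0.62), from 0 to 1 in IM 18h against 6h (without IM 6h replicate 3, IM 18h replicate 2 or 3), from 1 to 3 in JTE 6h against 1h (1 without JTE 1h replicate 3; 3 without JTE 6h replicate 3, CCNT2 0.62), from 1 to 3 in JTE 18h against 6h (without JTE 6h replicate 3, HEXIM1 0.76 and LARP7 -0.60), from 1 to 2 in IM 6h against JTE 6h (without IM 6h replicate 3 or JTE 6h replicate 1) and from 1 to 3 in KCl 1h against JTE 1h (1 without KCl 1h replicate 1 or JTE 1h replicate 3; 3 without KCl 1h replicate 3 or JTE 1h replicate 1 or 2, CCNT2 0.63, 0.63 and 0.60). The cause was not tested. The replicate block by title numbers changed no count of members called. The block with mRNA CTRL 1 and 2 exchanged, chosen after seeing the data, changed 1, calling HEXIM1 between fractions in IM 18h (1 member, 0.72, edgeR adjusted p 0.0349). In nuclear RNA the block by title numbers pairs the libraries. That block gave HEXIM1 in KCl 1h 1.54 (edgeR adjusted p 1.46e-17) and ELL2 in IM 18h 1.75 (edgeR adjusted p 3.46e-14). ELL had the fewest counts of the 9, and the width of its interval limits what could be detected.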

Other observations

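The nearest genes on the same strand as the members were read for their own changes. GDF9, an oocyte growth factor that starts 8495 bases downstream of AFF4, rose under KCl, from 0.36 to 2.16 CPM in KCl 1h mRNA (log2FC 2.57 with SE 0.47, edgeR adjusted p 0.000939), to 2.46 CPM in KCl 3h (2.74, SE 0.48, edgeR adjusted p 0.000211), and from 0.29 to 4.04 CPM in nuclear KCl 1h (3.75, SE 0.39, edgeR adjusted p 3.28e-07). It also rose in nuclear IM 18h (1.22, SE 0.48, edgeR adjusted p 0.0455). AFF4 itself was called in none of these. GDF9 held at most 124 counts in a library. In nuclear KCl 1h the other downstream neighbours FPGS (-0.07), KANSL2 (-0.13), ISYNA1 (-0.03) and TIMM50 (-0.05) were not called. HEXIM2 (-0.67) was called lower there.

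FPGS, which makes polyglutamate forms of folate and starts 3810 bases downstream of CDK9, fell in JTE 6h from 48.6 to 26.7 CPM (log2FC -0.86 with SE 0.12, edgeR adjusted p 2e-05) and in JTE 18h to 29.6 CPM (-0.72, SE 0.12, edgeR adjusted p 0.000577), while at 1 h the log2 fold change was -0.11. PLEKHG2, upstream of SUPT5H, fell in JTE 6h from 39.9 to 17.3 CPM (-1.21, SE 0.21, edgeR adjusted p 0.000159) and was at 40.9 CPM in JTE 18h. In IM 18h PLEKHG2 was called lower in mRNA (-0.82) and nuclear RNA (-0.69). TIMM50, downstream of SUPT5H, was too (-1.05 and -1.11). FKBP8, upstream of ELL, was called higher in IM 18h (0.65 and 0.64), and ISYNA1, downstream of ELL, lower in JTE 18h (-0.60). ACBD4, upstream of HEXIM1, was higher in IM 18h by 2.04 in mRNA and 1.37 in nuclear RNA, comparisons in which HEXIM1 was not called.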
